A study of Mus musculus with 6 samples.

Results

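The bone morphogenetic protein (BMP) and transforming growth factor beta (TGF-beta) pathway was followed in bulk RNA from mouse optic nerve through 43 of the 24062 genes in the count files. The genes were chosen by symbol, with earlier results of these data known. They were BMP, TGF-beta and activin ligands, their type I and type II receptors, the Smad genes, the Id genes and 3 secreted antagonists. The mutant animals carried PlpCreERT2;Nf1flox/flox, a tamoxifen-inducible Cre recombinase active in myelinating glia together with floxed Nf1 alleles (3 libraries). Controls had no Cre: control library 1 was Nf1flox/flox, and control libraries 2 and 3 were Nf1flox/+. All animals were adults over 2 months of age given tamoxifen, and the nerves were collected after 1 month. Because no control carried the Cre, Cre activity and loss of Nf1 cannot be told apart. The Cre line is not limited to oligodendrocytes, being known to act in Schwann cells too, and the nerve was profiled whole.

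In this pathway, ligand dimers bring type I and type II serine/threonine kinase receptors together on the cell surface. The activated type I receptor phosphorylates a receptor Smad, which joins the common Smad4 and enters the nucleus. BMP signals run through Smad1, Smad5 and Smad9, and TGF-beta and activin signals through Smad2 and Smad3. Smad6 and Smad7 are inhibitory Smads that are themselves induced by the pathway, and the Id genes are classical BMP targets. In white matter, BMP signalling is known to favour astrocytes over oligodendrocytes, and TGF-beta is made and sensed by vascular, meningeal and microglial cells.

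Of the 41 genes of the pathway that could be tested, Smad6 fell and Acvr1c rose in the mutant libraries. Smad6, the inhibitory Smad of the BMP branch, was 4.23-fold lower. Acvr1c, which encodes the activin type I receptor ALK7, was 9.27-fold higher. These 2 calls are 4.88% of the 41 genes, against 3.29% of all genes. Both were lost with limma-voom, with Xist level as a covariate and in the 5 fits that left out 1 library other than mutant library 2. Neuron markers were also higher in the mutant libraries, and their part in the rise of Acvr1c was not tested. Bmp4, Bmp6, Bmp7, Tgfb2, Tgfb3, Tgfbr2 and Tgfbr3 were lowest in mutant libraries 1 and 3 and nearer to control in mutant library 2, and none of them passed the test. Of the genes of activin subunits and receptors, Inhba, Acvr1b and Acvr2a stood above all controls in all 3 mutant libraries without passing the test, whereas Inhbb and Acvr2b overlapped between groups. All mutant libraries stood above all controls in 9.76% of the 41 genes, no more often than in all genes (12.5%).

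Libraries held 13555756 to 23662698 counts. Mutant library 2 stood apart from the other 2 mutants: the summed level of 14 myelin and oligodendrocyte markers was 36772 CPM there (CPM, counts scaled to the library total), 6026 and 5149 CPM in mutant libraries 1 and 3, and 28556 to 29420 CPM in controls. Xist and Y-linked transcripts put control libraries 1 and 3 in one class (58 and 34 counts of Xist) and control library 2 and all mutants in the other (30602 to 72727 counts). Sex therefore differs between the groups in part. Nf1 itself had 394, 400 and 337 CPM in controls and 304, 226 and 433 CPM in mutants, and reads summed over all its exons cannot show the floxed part. In bulk RNA, fewer cells of a type and less RNA per cell cannot be told apart. The labels do not tie libraries to separate animals. The control libraries each differ from the others in genotype or Xist class, so they came from different animals. The mutant libraries share genotype and Xist class, which leaves this unknown for them. The p-values therefore speak only of library-to-library spread, which among the mutants is possibly technical.

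Levels per length were compared as RPKM (CPM per kilobase of exon), which allows genes to be set side by side. Id3, an Id gene that blocks basic helix-loop-helix factors, had the highest control level of the pathway, 94.6 ± 8.46 RPKM (SD, n = 3). Id4 at 50.2 ± 11.5 RPKM and the type II BMP receptor gene Bmpr2 at 49.9 ± 1.72 RPKM came next and did not differ beyond their spread. Bmp6 was the most abundant ligand gene with 40.4 ± 1.74 RPKM, close to the type I receptor gene Bmpr1a (38.7 ± 2.54 RPKM) and Id2 (38.6 ± 3.92 RPKM). Bmp7 at 26.3 ± 5.03, Tgfb2 at 23.9 ± 1.42 and Bmp4 at 21.3 ± 5.44 RPKM followed among the ligands, and their spreads overlapped. Tgfb1, by contrast, had 2.19 ± 0.899 RPKM, below Tgfb3 with 10.1 ± 0.647 RPKM. Among receptor genes, Acvr1c had the lowest control level, 0.358 ± 0.171 RPKM. Smad4 had 23.0 ± 1.29 RPKM, and Smad6 the lowest level of the Smads, 1.53 ± 0.159 RPKM.

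**Figure D1:**
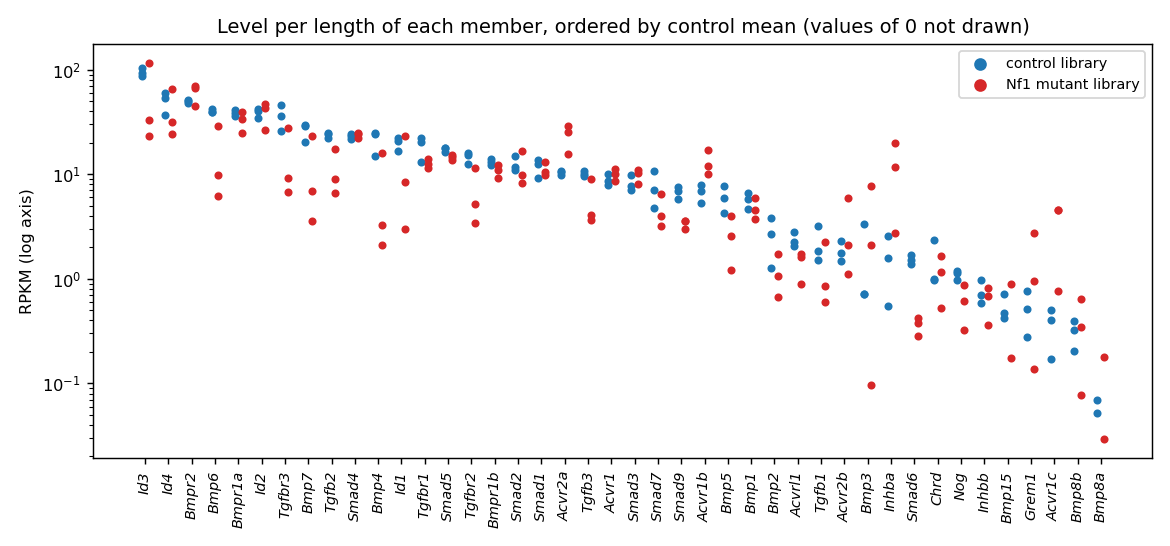
Level per length (RPKM, log axis) of each gene of the pathway, ordered by control mean; blue points are the 3 control libraries and red points the 3 Nf1 mutant libraries, and values of 0 are not drawn. Id3 leads with a control mean of 94.6 RPKM, and the mutant points of Bmp6, Bmp4 and Tgfbr3 spread over a wider range than their control points.

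Very low genes were Bmp10, with 0 counts in all 6 libraries, which allows up to 3 counts in each, and Bmp8a, with 0 to 8 counts. Neither entered the test. Bmp8b, with 3 to 28 counts, and the oocyte ligand gene Bmp15, with 0 to 44 counts, were tested but give little precision.

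Across the 16315 genes tested with edgeR's quasi-likelihood test, 3.29% were called at a Benjamini-Hochberg adjusted p under 0.05. Of the 41 genes of the pathway 2 were called, 4.88%, so the share lies near that of all genes. In 14 of them, 34.1%, the unadjusted p was under 0.05, against 19.2% of all genes. The median log2 fold change (log2 ratio, mutant over control) was -0.31 over the 41 genes and -0.0017 over all genes, and 50.1% of all genes had negative values; 28 of the 41 values were negative. All mutant libraries lay below all controls in 10 genes (24.4%, against 11.5% of all genes) and above them in 4 genes (9.76%, against 12.5%). In 12 further genes (29.3%, against 15.8%) mutant libraries 1 and 3 lay below all controls while mutant library 2 did not, and in 2 genes (4.88%, against 13.3%) they lay above. These are counts over genes that share libraries, and the genes are not replicates.

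**Figure D2:**
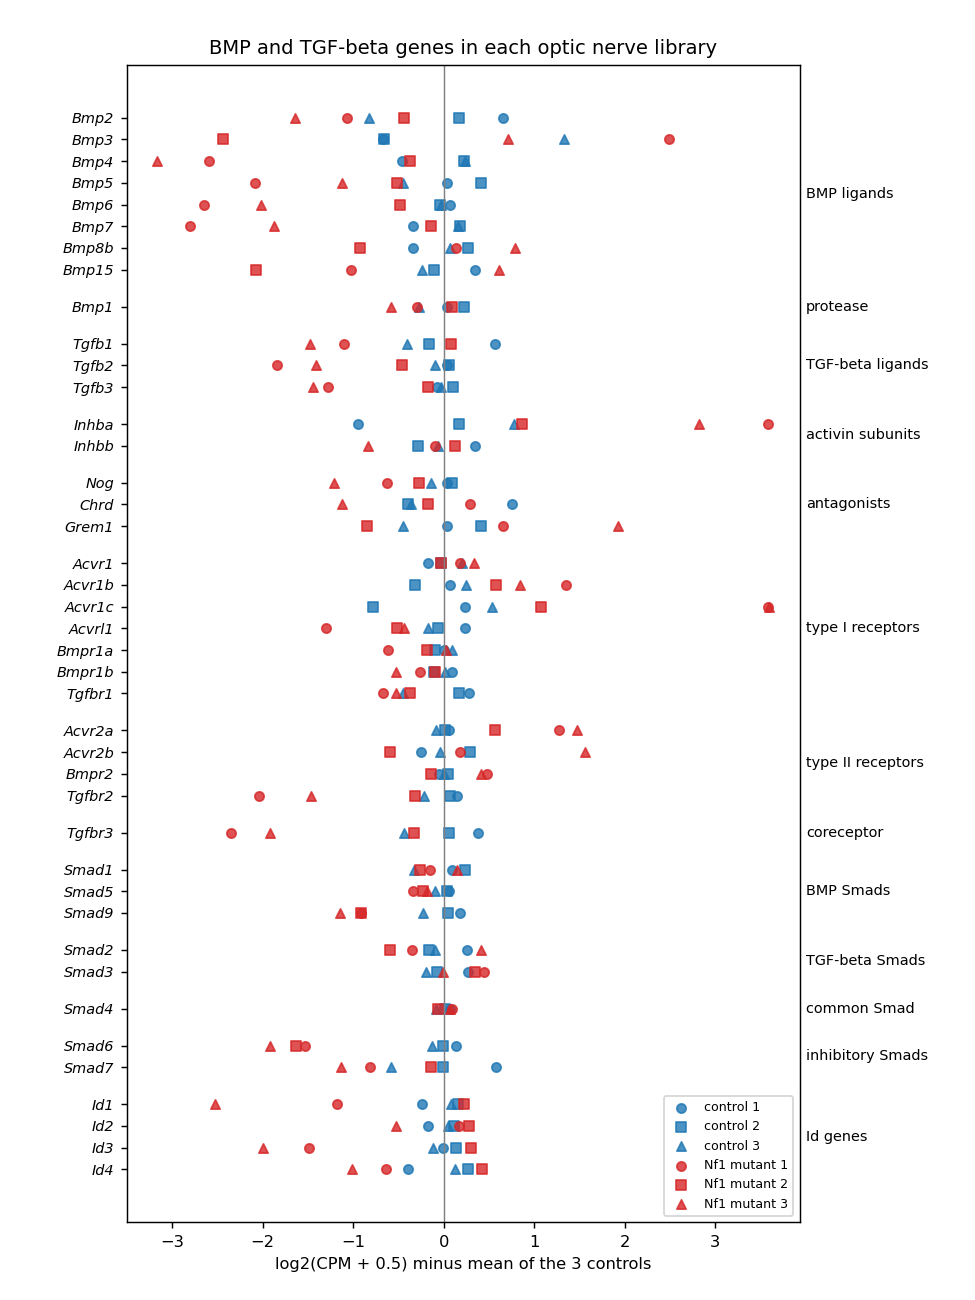
Each row is a tested gene of the pathway, grouped by role; points give log2(CPM + 0.5) of each library minus the mean of the 3 controls (blue: controls, red: Nf1 mutants; circles, squares and triangles are libraries 1, 2 and 3). Red squares (mutant library 2) sit near the controls in most ligand and Id rows, whereas all 3 red points lie together below the controls for Smad6 and Smad9.

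Of 8 tested BMP ligand genes none passed by edgeR, and 4 had an unadjusted edgeR p under 0.05, as did 19.2% of all genes. Their median log2 ratio was -1.20, against -0.0017 over all genes. Bmp4, which in the nervous system directs precursors away from the oligodendrocyte fate, had 30.01, 48.4 and 49.2 CPM in control libraries 1, 2 and 3. In mutant libraries 1, 2 and 3 it had 6.47, 31.9 and 4.19 CPM. Mutant library 2 lay inside the control range and the other 2 far below it, and the log2 ratio was -1.59 (SE 0.67, edgeR adjusted p 0.240).

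Bmp6, a ligand made by endothelial cells among others, had 102, 94.4 and 95.3 CPM in controls and 15.1, 69.2 and 23.7 CPM in mutants. All mutant libraries were below all controls, with a log2 ratio of -1.44 (SE 0.49, edgeR adjusted p 0.159). Bmp7, a meningeal and glial ligand, had 75.2, 108 and 106 CPM in controls and 13.2, 86.1 and 25.6 CPM in mutants. Its groups overlapped through mutant library 2 (log2 ratio -1.21, SE 0.58, edgeR adjusted p 0.298).

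Bmp5 had 15.1, 19.7 and 10.7 CPM in controls and 3.08, 10.1 and 6.49 CPM in mutants, with a narrow gap between control library 3 and mutant library 2. Bmp2 had 13.7, 9.62 and 4.56 CPM in controls and 3.78, 6.12 and 2.37 CPM in mutants, so the control spread was wide. Their log2 ratios were -1.21 and -1.19, with edgeR adjusted p of 0.188 and 0.245. Bmp3, which encodes an atypical ligand that opposes other BMPs, had no common direction. It had 2.23, 2.24 and 10.4 CPM in controls and 23.8, 0.302 and 6.63 CPM in mutants. Bmp1 is no ligand in spite of its name but a procollagen protease, which also cleaves the antagonist chordin. It had a log2 ratio of -0.26 (edgeR adjusted p 0.654).

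All 3 TGF-beta ligand genes had negative values and none passed. Tgfb2 had 116, 118 and 105 CPM in controls and 31.1, 82.2 and 42.3 CPM in mutants. The 3 mutant libraries were below the lowest control, and the log2 ratio was -1.12 (SE 0.35, edgeR adjusted p 0.124). Tgfb3 had 32.5, 36.8 and 33.7 CPM in controls and 13.9, 30.5 and 12.3 CPM in mutants (log2 ratio -0.87, edgeR adjusted p 0.231). Tgfb1, the isoform best known from immune and injured tissue, had 1.26 to 4.69 CPM in mutants and 3.19 to 6.74 CPM in controls. The groups overlapped and its log2 ratio was -0.84 (edgeR adjusted p 0.471).

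Inhba encodes the subunit of activin A and is known as an activity-induced gene of forebrain neurons. It had 0.842, 2.41 and 3.94 CPM in controls and 30.6, 4.23 and 17.8 CPM in mutants. Mutant library 2 was just above control library 3, and the log2 ratio was 2.87 (SE 0.75, edgeR adjusted p 0.0775). The other subunit gene, Inhbb, overlapped between groups at -0.27 (edgeR adjusted p 0.803).

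Secreted antagonists were scarce. Noggin, encoded by Nog, binds BMPs and keeps them from their receptors. Nog had 2.18, 2.28 and 1.87 CPM in controls and 1.19, 1.66 and 0.628 CPM in mutants (log2 ratio -0.86, edgeR adjusted p 0.439). Chordin (Chrd) and gremlin (Grem1) genes had values of -0.36 and 1.29 on the log2 scale, overlapping groups, and edgeR adjusted p of 0.767 and 0.481.

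Acvr1c, the type I receptor gene that rose, lies on chromosome 2 from 58267453 to 58357758 on the minus strand (mm10). It had 3.62, 1.53 and 4.56 CPM in controls and 41.5, 6.88 and 41.7 CPM in mutants. Mutant libraries 1 and 3 were far above the controls and mutant library 2 above them by a small margin. Means were 3.24 ± 1.55 and 30.01 ± 20.03 CPM (SD, n = 3 each), with a log2 ratio of 3.21 (SE 0.68, edgeR adjusted p 0.0408). The rise rests on 220 counts in the controls together and 1457 in the mutants. Of its 9049 exonic bases, 168 overlap Gm13544, and counting ignored strand.

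Acvr1b, the gene of the main activin type I receptor ALK4, had 22.9, 17.4 and 25.9 CPM in controls and 56.3, 32.9 and 39.4 CPM in mutants. The groups did not overlap, and the log2 ratio was 0.96 (SE 0.28, edgeR adjusted p 0.109). The BMP type I receptor genes varied less. Bmpr1a had a log2 ratio of -0.24 (edgeR adjusted p 0.639), Bmpr1b -0.29 (0.505) and Acvr1 0.16 (0.747). Acvrl1, whose product ALK1 is the endothelial type I receptor, had 10.6, 8.54 and 7.88 CPM in controls and 3.35, 6.12 and 6.49 CPM in mutants. All its mutant values were lower, at -0.77 (edgeR adjusted p 0.298). Tgfbr1, the TGF-beta type I receptor gene, had 125, 116 and 75.1 CPM in controls and 64.7, 79.4 and 71.4 CPM in mutants. The groups overlapped because of control library 3 (log2 ratio -0.55, edgeR adjusted p 0.271).

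Acvr2a, an activin type II receptor gene, had 61.6, 59.8 and 55.8 CPM in controls and 143, 87.9 and 165 CPM in mutants. Every mutant library was above every control, with a log2 ratio of 1.16 (SE 0.27), and the edgeR adjusted p of 0.0526 missed the threshold. Its exons share 511 of 5681 bases with Orc4, which unstranded counts cannot separate. Tgfbr2, the TGF-beta type II receptor gene, went the other way. It had 77.1, 72.6 and 59.5 CPM in controls and 16.5, 55.4 and 24.7 CPM in mutants, at -1.12 (SE 0.41, edgeR adjusted p 0.185).

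Tgfbr3 encodes betaglycan, the coreceptor that presents TGF-beta2 and inhibin. It had 277, 221 and 157 CPM in controls and 41.2, 169 and 55.6 CPM in mutants. Mutant library 2 exceeded control library 3 and the other mutants were well below (log2 ratio -1.30, SE 0.50, edgeR adjusted p 0.206). Bmpr2 was at 0.28 (edgeR adjusted p 0.610), with mutant libraries 1 and 3 above all controls (771 and 737 against 534 to 572 CPM) and mutant library 2 below them (501 CPM). Acvr2b had 1.89 to 10.1 CPM in mutants and 2.53 to 3.90 CPM in controls, and its groups overlapped.

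Smad6, the Smad gene that fell, lies on chromosome 9 from 63953076 to 64022059 on the minus strand. It had 5.05, 4.52 and 4.11 CPM in controls and 1.24, 1.13 and 0.837 CPM in mutants. The mutant libraries lay close together, mutant library 2 included, and all far below the controls. Means were 4.56 ± 0.473 and 1.07 ± 0.209 CPM (SD, n = 3 each), with a log2 ratio of -2.08 (SE 0.44, edgeR adjusted p 0.0414). The counts behind it were low, 99 to 109 in each control and 12 to 23 in each mutant. Calls lower in mutants made up 0.337% of all genes tested, and calls higher in mutants 2.95%.

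Smad9, a BMP receptor Smad on chromosome 3 (54755582 to 54801269, plus strand), showed the same order of libraries with smaller differences. It had 41.0, 37.4 and 30.9 CPM in controls and 19.0, 19.0 and 16.1 CPM in mutants. No library overlapped with the other group, the log2 ratio was -1.01 (SE 0.23), and the edgeR adjusted p of 0.0530 missed the threshold. The other BMP Smads differed less: Smad5 had 116 to 129 CPM in controls and 97.9 to 109 CPM in mutants (log2 ratio -0.25, edgeR adjusted p 0.527). Smad1 overlapped between groups at -0.10 (SE 0.25, edgeR adjusted p 0.870).

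None of the receptor Smads of the TGF-beta branch and the common Smad separated the groups. Smad2 had 136, 101 and 107 CPM in controls and 89.5, 75.2 and 152 CPM in mutants, on both sides of the control range. Smad3 had 49.8, 39.1 and 35.8 CPM in controls and 56.4, 52.3 and 41.1 CPM in mutants. Smad2 had a log2 ratio of -0.12 (SE 0.30), Smad3 of 0.26 (SE 0.24) and Smad4 of 0.036 (SE 0.20), with edgeR adjusted p of 0.588 to 0.944. Smad4 had 72.4 to 81.0 CPM in controls and 73.8 to 82.3 CPM in mutants. Smad7, the inhibitory Smad of both branches, had 47.5, 31.6 and 21.0 CPM in controls and 17.8, 28.6 and 14.2 CPM in mutants. Its control values were wide and overlapped with mutant library 2 (log2 ratio -0.72, SE 0.37, edgeR adjusted p 0.328).

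**Figure D3:**
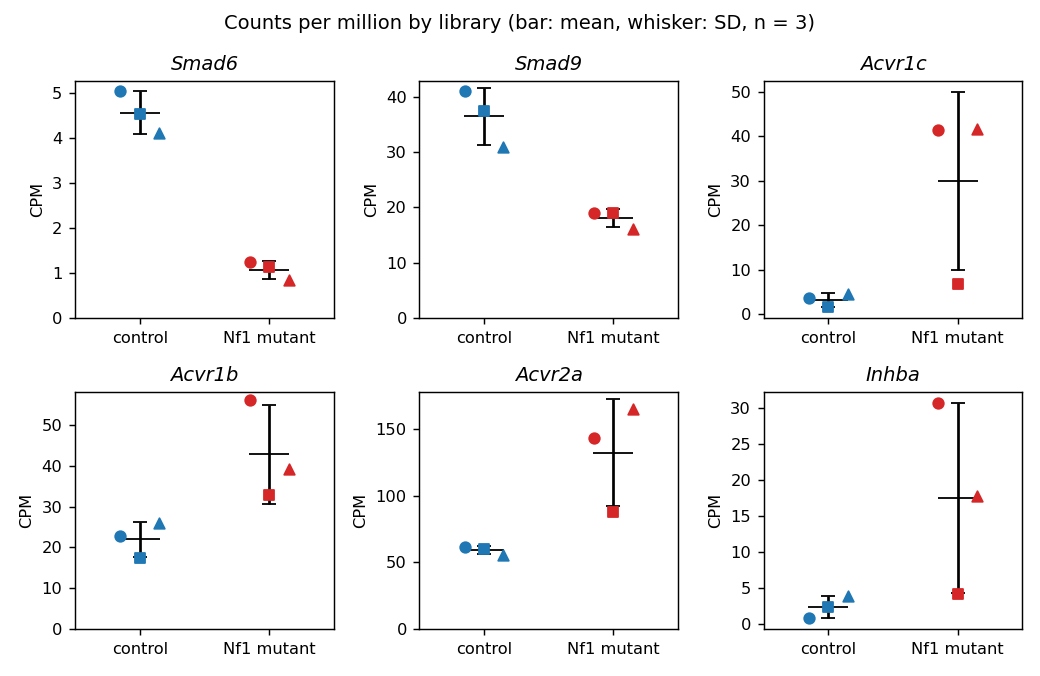
CPM of Smad6, Smad9, Acvr1c, Acvr1b, Acvr2a and Inhba in the 3 control (blue) and 3 Nf1 mutant (red) libraries; circles, squares and triangles are libraries 1, 2 and 3, bars are means and whiskers SD (n = 3). Mutant library 2 lies with the other mutants for Smad6 and Smad9, and between them and the controls for Acvr1c, Acvr1b, Acvr2a and Inhba.

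The bases just before the transcription start are shown for Smad6 and Acvr1c, the 2 genes called, and for Smad9. Smad9, a receptor Smad gene, was lower in all mutant libraries but was not called (edgeR adjusted p 0.0530). It was picked by hand, and Acvr2a, with an edgeR adjusted p of 0.0526, is not shown. The windows are the 250 bases upstream of the start, 5′ to 3′ on the gene's strand, from RefSeq on GRCm38.p6 (the mm10 assembly). Capitals mark GGCGCC or GGAGCC on either strand (GGCTCC is the reverse of the latter), GC-rich letters known from BMP Smad binding.
Smad6 promoter, chr9:64022060-64022309, minus strand: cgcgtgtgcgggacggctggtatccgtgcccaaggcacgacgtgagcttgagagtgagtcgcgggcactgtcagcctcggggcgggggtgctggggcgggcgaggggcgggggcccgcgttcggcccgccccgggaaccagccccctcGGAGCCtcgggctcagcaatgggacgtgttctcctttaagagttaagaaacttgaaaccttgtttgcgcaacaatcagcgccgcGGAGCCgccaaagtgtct
Smad9 promoter, chr3:54755332-54755581, plus strand: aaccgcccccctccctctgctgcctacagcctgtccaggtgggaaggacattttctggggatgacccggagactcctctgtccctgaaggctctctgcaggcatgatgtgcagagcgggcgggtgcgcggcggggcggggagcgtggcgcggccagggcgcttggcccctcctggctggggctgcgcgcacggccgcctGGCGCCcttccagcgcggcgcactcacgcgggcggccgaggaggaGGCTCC
Acvr1c promoter, chr2:58357759-58358008, minus strand: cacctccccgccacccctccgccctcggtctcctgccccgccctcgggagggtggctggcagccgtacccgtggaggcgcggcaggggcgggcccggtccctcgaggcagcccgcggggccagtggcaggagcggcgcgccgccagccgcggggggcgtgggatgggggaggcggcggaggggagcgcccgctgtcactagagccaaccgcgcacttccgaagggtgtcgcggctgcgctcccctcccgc

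Smad6 holds 2 copies of GGAGCC, Smad9 holds 1 of each motif, and the Acvr1c window holds neither. Over 32851 promoters of the same length, 9.59% hold GGCGCC, 25.97% hold GGAGCC and 31.7% hold at least 1 of them. Of the 37 promoters matched to genes of the pathway, 22 (59.5%) hold at least 1, so the matches do not set Smad6 and Smad9 apart from the other genes. The 3 windows are rich in G and C (66.8%, 73.2% and 79.6% for Smad6, Smad9 and Acvr1c) against a median of 52.4% over all promoters, and such letters occur more often in GC-rich sequence. A match describes these letters and shows no binding, and the motifs were picked after the fold changes were known. RefSeq promoters were matched for 31 of the 43 genes.

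None of the 4 Id genes passed, and their median log2 ratio was -0.51. Id1 had 15.7, 20.7 and 19.6 CPM in controls and 7.93, 21.8 and 2.79 CPM in mutants. Id3 had 89.3, 98.6 and 82.6 CPM in controls and 31.7, 111 and 22.1 CPM in mutants. For both genes mutant library 2 was above every control and mutant libraries 1 and 3 below every control, so the means describe none of the mutant libraries. The log2 ratios were -0.79 (SE 0.60) and -0.72 (SE 0.52), with edgeR adjusted p of 0.511 and 0.497. Id4 showed the same order (61.9, 98.5 and 89.6 CPM in controls, 52.4, 110 and 40.2 CPM in mutants). Id2, known from neural precursors and lymphoid cells, had 43.5 to 53.1 CPM in controls and 33.9 to 59.7 CPM in mutants, a log2 ratio of 0.014. Id1, Id3 and Id4 thus set mutant library 2 apart from the other mutants, whereas Id2, Smad6 and Smad9 did not.

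Without mutant library 2, edgeR called 20 of the 41 genes (48.8%), 16 lower and 4 higher, where it called 27.0% of all genes tested (13.8% lower and 13.2% higher). With 2 mutant libraries left, this describes those libraries. Lower were Bmp2, Bmp4, Bmp5, Bmp6, Bmp7, all 3 TGF-beta ligands, Tgfbr2, Tgfbr3, Smad6, Smad7, Smad9, Id1, Id3 and Id4. Furthest from 0 were Bmp4 at -2.98 (edgeR adjusted p 0.000151), Bmp6 at -2.32 (0.000126), Bmp7 at -2.31 (0.000472) and Tgfbr3 at -2.17 (0.000324). Id3 was at -1.74 (edgeR adjusted p 0.00045) and Id1 at -1.78 (0.00923). Higher were Acvr1c at 3.69, Inhba at 3.33, Acvr2a at 1.39 and Acvr1b at 1.12, all genes of an activin subunit or receptor. Smad6 was at -2.11 and Smad9 at -1.04, values close to those over all 6 libraries.

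**Figure D4:**
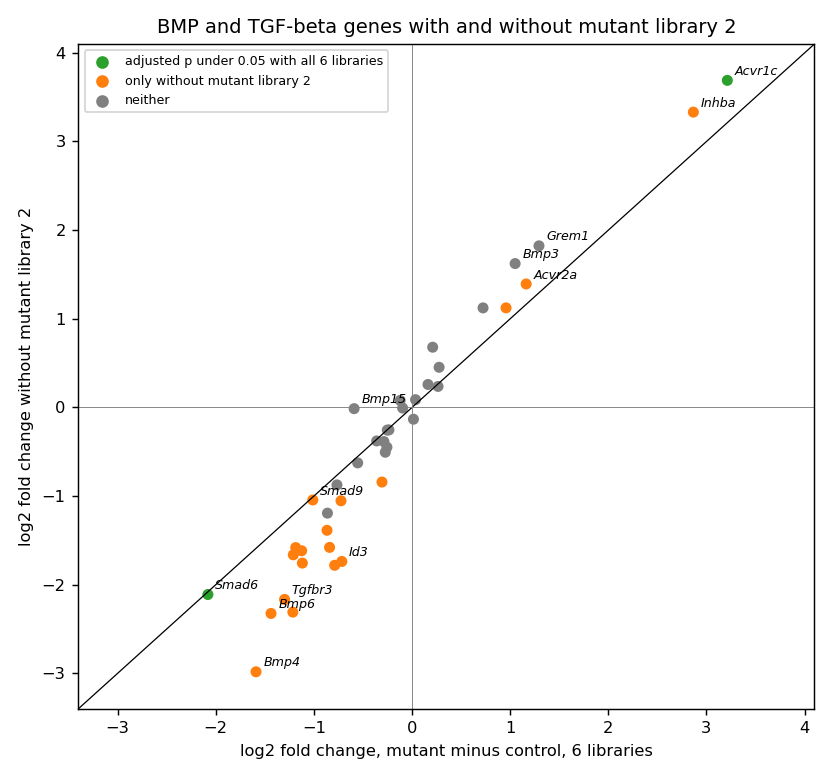
Log2 fold change (mutant minus control) of each tested gene of the pathway over all 6 libraries (x axis) and without mutant library 2 (y axis); the diagonal marks equal values, and colours give the edgeR call at adjusted p under 0.05. Bmp4, Bmp6, Tgfbr3 and Id3 lie below the diagonal (Bmp4 at -1.59 and -2.98), whereas Smad6 and Smad9 lie on or next to it.

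Markers of other cell types moved with these genes. The summed level of 12 meningeal fibroblast markers (all 12 detected; Igf2, Dcn and Mgp the most abundant) was 2974 to 3917 CPM in controls and 509, 2374 and 667 CPM in mutant libraries 1, 2 and 3. All 12 were lower in every mutant library than in any control, as were 11.5% of all genes. For 12 endothelial markers the sum was 525 to 624 CPM in controls and 206, 450 and 272 CPM in mutants, and 6 of the 12 (against 11.5% of all genes) were lower in every mutant library. For 11 mural cell markers it was 331 to 353 CPM in controls and 137, 280 and 124 CPM in mutants. In these 3 lists mutant library 2 was the mutant nearest to control, as it was for Bmp4, Bmp6, Bmp7, Tgfb2, Tgfbr2 and Tgfbr3. This order was not particular to vascular and meningeal markers. By their sums the myelin, oligodendrocyte precursor, microglia, Schwann cell and pial lists had it too, and the astrocyte list did not. Sums follow the most abundant genes. The median log2 deviation from the control mean over the astrocyte genes was -1.05, 0.17 and -0.68 in mutant libraries 1, 2 and 3. By this measure mutant library 2 was nearest to control for the astrocyte list too, but not for the pial list (-0.20, -0.38 and -1.12). For the microglia list the sum was 630 to 803 CPM in controls and 459, 819 and 331 CPM in mutants. Smad6 had no such order, being as low in mutant library 2 as in mutant library 1. The part of these cells in the results was not tested.

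Neuron markers were higher by their sum in all mutant libraries, as were Inhba, Acvr1c, Acvr1b and Acvr2a, whereas Inhbb and Acvr2b overlapped between groups. For 14 neuron markers the sum was 1059 to 1793 CPM in controls and 9552, 2827 and 7398 CPM in mutant libraries 1, 2 and 3. For 12 striatal neuron markers it was 201 to 272 CPM in controls and 2636, 1768 and 1860 CPM in mutants, and all 12 were higher in every mutant library, as were 12.5% of all genes. Inhba, Acvr1c, Acvr1b, Acvr2a and Acvr2b were, like the neuron sum, lowest in mutant library 2 among the mutants, and Inhbb was highest there. The part of neurons in these results was not tested. None of the markers of the meningeal fibroblast, endothelial, mural, neuron and striatal lists was at 0 in all libraries.

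**Figure D5:**
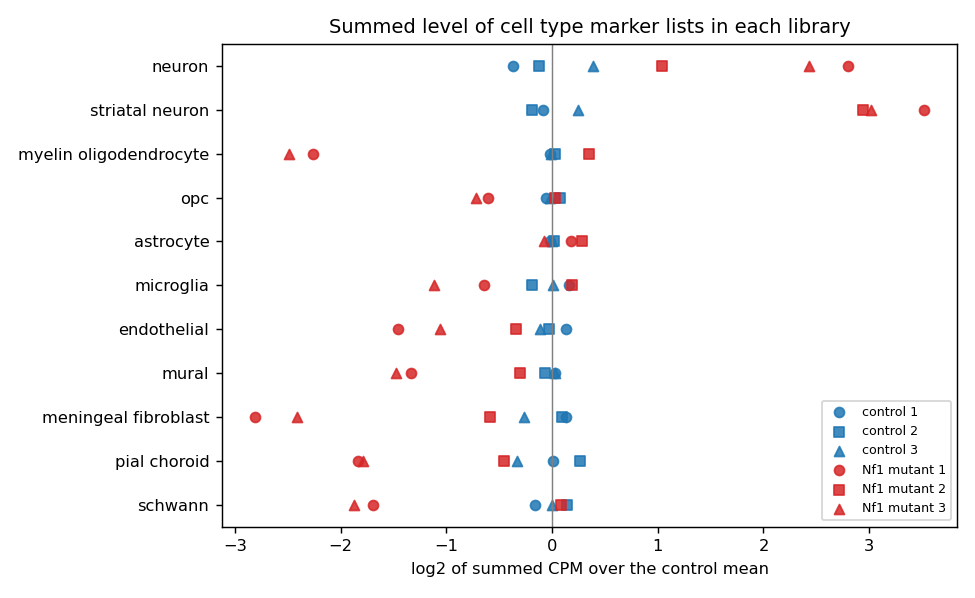
Log2 of the summed CPM of 11 cell type marker lists over the control mean, by library (blue: controls, red: Nf1 mutants; circles, squares and triangles are libraries 1, 2 and 3). Mutant libraries 1 and 3 are low for myelin, vascular and meningeal lists and mutant library 2 is close to the controls there, whereas all 3 mutants are high for the neuron and striatal lists.

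More of the pathway was followed in 5 lists. The BMP target list shares 3 genes with those described above, and the TGF-beta target list 1. Skil stands both among the intracellular regulators and among the TGF-beta targets. Of 32 tested secreted modulators (binding proteins, latent TGF-beta binding proteins and accessory receptors) none passed by edgeR, and the median log2 ratio was -0.14. In 13 of them (40.6%, against 19.2% of all genes) the unadjusted edgeR p was under 0.05. Chrdl2, a chordin-like antagonist gene, was at 2.92 and Fst, the gene of the activin antagonist follistatin, at 3.02 (edgeR adjusted p 0.0871 and 0.0913). Both values rest on few counts, 12 for Chrdl2 and 22 for Fst in the controls together. Chrdl2 had 0.0495, 0.166 and 0.290 CPM in controls and 1.46, 1.74 and 0.837 CPM in mutants, with mutant library 2 the highest. Fst had 0.248, 0.622 and 0.0830 CPM in controls and 3.40, 1.06 and 3.42 CPM in mutants, with mutant library 2 the lowest mutant, as for Inhba and Acvr1c. Ltbp4, which tethers latent TGF-beta to the matrix, was at -1.01 and the coreceptor gene Tdgf1 at -1.55, with edgeR adjusted p of 0.108 and 0.111.

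Other ligands of the family were mostly too low to test. Of 18 genes 7 were tested and none passed by edgeR, and 2 (28.6%, against 19.2% of all genes) had an unadjusted edgeR p under 0.05. Gdf10 was at -1.13, the inhibin alpha gene Inha at 1.08, Gdf3 at -0.45 and Gdf9 at -0.66, with edgeR adjusted p of 0.135 to 0.635.

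Among 31 intracellular regulators, 1 rose and none fell (3.23%, against 3.29% of all genes, so the share is that of the background), and the median was 0.11. Nedd4l, a ubiquitin ligase gene that acts on Smad2 and Smad3 and on ion channels, had 64.8 to 73.8 CPM in controls and 316, 153 and 303 CPM in mutants. Its log2 ratio was 1.91 (SE 0.30, edgeR adjusted p 0.0150). Tgif1, a corepressor gene, was at -1.08, the Smad corepressor gene Skil at 0.71 and Fkbp1a at 0.58, none of which passed.

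The listed BMP targets had no common direction. The list does not hold all of the Id genes, which are described above. Of 15 tested genes 2 rose and 1 fell, Smad6 itself (20.0% called, against 3.29% of all genes), with a median of -0.22. The genes that rose were Runx1t1 (log2 ratio 1.72, edgeR adjusted p 0.0209) and Dlx5 (2.43, 0.0312). Dlx5, a homeobox gene that also marks forebrain GABAergic neurons, had 2.24 to 2.82 CPM in controls and 20.6, 5.89 and 15.2 CPM in mutants, again lowest in mutant library 2 among the mutants. Gata2, an endothelial and haematopoietic factor gene, was at -1.59 (edgeR adjusted p 0.0587), with 2.16 to 2.72 CPM in all 3 mutants and 6.19 to 9.42 CPM in controls.

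TGF-beta targets had the lowest median of the 5 lists, -1.28 over 23 tested genes, of which 11 (47.8%, against 19.2% of all genes) had an unadjusted p under 0.05. Of the list 1 gene was called (4.35%, against 3.29% of all genes). Postn, the gene of the matrix protein periostin, fell from 22.8 ± 2.56 to 8.80 ± 0.460 CPM (SD, n = 3 each; log2 ratio -1.37, edgeR adjusted p 0.0244). Acta2 was at -1.70, Snai2 at -1.76 and Col3a1 at -1.55, with edgeR adjusted p of 0.0752 to 0.0877. Col1a1, Col1a2, Col3a1, Acta2 and Tagln of this list also stand in the fibroblast or mural lists, so it is not independent of those markers. The calls among intracellular regulators, BMP targets and TGF-beta targets all fell to 0 with the Xist covariate and in the 5 fits that left out 1 library other than mutant library 2. Limma-voom called 1 intracellular regulator, 1 BMP target and 3 TGF-beta targets, where it called 3.1% of all genes.

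The calls of Smad6 and Acvr1c did not hold in every setting. Without mutant library 1 or 3, or without any 1 control, no gene of the pathway passed by edgeR, where 0.977% and 1.19% of all genes were called without mutant libraries 1 and 3 and 0.306%, 0.488% and 0.675% without control libraries 1, 2 and 3. The edgeR adjusted p was 0.116 to 0.209 for Smad6 and 0.127 to 0.191 for Acvr1c. The log2 ratios in those fits were -2.20 to -1.93 and 2.88 to 3.54. With Xist level as a covariate, no gene of any kind passed in edgeR (8 of the 41 and 7.94% of all genes had an unadjusted p under 0.05, and 0.0% of all were called), Smad6 was at -2.06 and Acvr1c at 4.23. Against control library 2 alone, the one control of the mutants' Xist class, Smad6 was at -2.07 and Acvr1c at 4.28. With 1 control no gene was called (5 of the 41 and 5.24% of all genes had an unadjusted p under 0.05), so this gives values and no test of the calls. DESeq2, the tool the study names, called 8 of the 41 genes (19.5%, against 10.1% of all genes). These were Smad6, Smad9, Bmp6 and Tgfb2 lower, and Acvr1c, Acvr1b, Acvr2a and Inhba higher. Limma-voom called none of them, against 3.1% of all genes (17 of the 41 and 22.5% of all genes had an unadjusted p under 0.05). Upper quartile scaling added Smad9 to the 2 calls (3 of 41, against 3.23%), and dropping the filter on low counts added Acvr2a and Inhba (4 of 42, against 4.07%).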

How the data were processed

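Raw fragment counts per gene were deposited, 1 library per file, with no normalization. Per the file headers, the authors ran featureCounts 1.4.6-p4 in paired mode on UCSC mm10 exons, ignoring strand. TopHat and mm10 are named in the submitters' processing notes. Per the labels' protocols, an Ovation v2 amplification preceded Nextera XT library preparation.

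No 2 libraries agreed within sampling noise (chi-square per degree of freedom at least 45.6). The main test was edgeR 4.0.16 in R 4.3.3, comparing 3 controls with 3 mutants by quasi-likelihood without covariates, after TMM scaling and a low-count filter (filterByExpr, minimum count 10). P-values were adjusted by Benjamini-Hochberg over all genes tested, with 0.05 as threshold. SE is the size of the log2 fold change over the square root of F. CPM and RPKM use TMM-scaled library sizes and the deposited gene lengths. The fit was tested on simulated counts. Limits for 0 counts cover counting error only.

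Genes of the pathway were named by symbol. From each pathway list up to 4 genes were named, called ones first and then by smallest p; from marker lists, up to 3 by level. The genes and lists were chosen with earlier results of these data known. Other settings tried were upper quartile scaling, DESeq2 size factors, limma-voom (limma 3.58.1), DESeq2 1.42.0, no filter, log2 CPM of Xist as covariate, and each library left out; the comparison within 1 Xist class was chosen after seeing the data. No proteins were used here.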

Additional observations from a re-analysis of the deposited data

How the results depend on the processing

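Of the 41 genes, 32 kept the sign of their log2 fold change in all 13 alternatives. None of the 9 genes whose sign changed was called. With upper quartile scaling Smad4 was at -0.032 and Id2 at -0.057; with limma-voom Bmp8b was at -0.11 and Id2 at -0.022; with the Xist covariate Bmp8b was at -0.19, Inhbb at 0.091, Chrd at 0.18 and Id2 at -0.054. Within the high-Xist libraries Bmp8b was at -0.15, Inhbb at 0.089, Chrd at 0.20, Smad2 at 0.059 and Id2 at -0.094. Leaving out 1 library at a time gave ranges that crossed 0 for 9 genes: Bmp3 -0.51 to 2.20, Bmp8b -0.49 to 0.68, Inhbb -0.51 to 0.0010, Chrd -0.77 to 0.19, Acvr2b -0.19 to 1.12, Smad1 -0.25 to 0.037, Smad2 -0.48 to 0.079, Smad4 -0.010 to 0.087 and Id2 -0.13 to 0.23.

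The count of called genes of the pathway, 2, was 8 with DESeq2, 0 with limma-voom (17 at an unadjusted p under 0.05), 4 without the filter, 0 with the Xist covariate (8 unadjusted) and 0 within the high-Xist libraries (5 unadjusted). Without 1 library it was 0 to 20, the 20 being without mutant library 2. The count over all genes, 537, was 1645 with DESeq2, 870 without the filter, 0 with the Xist covariate and 0 within the high-Xist libraries (894 unadjusted), and 51 to 4551 without 1 library.

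DESeq2 called 6 of 32 secreted modulators, 1 of 7 other ligands and 2 of 31 intracellular regulators. It also called 4 of 15 BMP targets and 8 of 23 TGF-beta targets, where it called 10.1% of all genes. Limma-voom called 1 of 31 intracellular regulators, 1 of 15 BMP targets and 3 of 23 TGF-beta targets, against 3.1% of all genes. The fit without the filter called 3 of 23 TGF-beta targets, against 4.07% of all genes. With the Xist covariate, and within the high-Xist libraries, 0 intracellular regulators, 0 BMP targets and 0 TGF-beta targets were called. Without 1 library, calls were 0 to 18 for secreted modulators, 0 to 3 for other ligands, 0 to 3 for intracellular regulators, 0 to 6 for BMP targets and 0 to 14 for TGF-beta targets, the highest being without mutant library 2, where 27.0% of all genes were called. The median of the secreted modulators was -0.35 without the filter and -0.39 to -0.073 without 1 library. The median of the other ligands, -0.45, was 0.067 with the Xist covariate, 0.12 within the high-Xist libraries and -0.53 to -0.069 without 1 library. No cause of these differences was tested. No paired analysis was possible because the labels give no replicate numbers that tie libraries of the groups together.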
